A study of Mus musculus with 4 samples.

Results

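Amh, Amhr2, Inha, Inhba, Inhbb, Fst and Fshr encode the peptide hormones of the Sertoli cell, their receptor and binding partners, and the receptor through which the pituitary addresses that cell. These 7 genes, of 19938 measured, were taken by name: each is the only gene symbol of a single probe set, a group of array probes summarised to 1 value. They were measured in testes of male Lhcgr KO mice (2 arrays) and of male control WT mice (2 arrays). Lhcgr is the gene of the luteinizing hormone receptor, by which the pituitary stimulates Leydig cells to make testosterone. Both genotypes had received busulfan, an alkylating drug that depletes germ cells, at 44 mg/kg and were killed 4 weeks later. The labels give neither strain, age, the design of the knockout allele nor whether each replicate was a different animal. The p-values therefore rest on the spread between these arrays alone, which may be technical, and having only 2 arrays per group limits precision throughout.

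AMH, anti-Müllerian hormone, is the product of immature Sertoli cells that removes the Müllerian ducts of the male fetus, and its output is known to fall as Sertoli cells mature under androgen, while follicle-stimulating hormone (FSH) sustains it. Inhibins are dimers of an alpha subunit with a beta subunit and restrain FSH secretion by the pituitary, whereas activins are dimers of beta subunits alone and promote it. Follistatin binds and neutralises activins, and FSH acts on the testis through its receptor on Sertoli cells.

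The promoter windows of 5 members were read from RefSeq on GRCm38.p6, each covering 250 bases before and 50 after the start of the gene. Those of Amhr2 and Inha are shown because they share a motif, that of Fshr because it holds an E-box, and that of Inhbb as the beta subunit with the larger difference between the genotypes. Capitals mark letters of motifs searched on both strands: AGGTCA, bound by the nuclear receptor NR5A1, GATAA of GATA factors, ACAAT of SOX factors, CACGTG, the E-box, and TGACG, part of the cyclic AMP response element. No matches in the 5 windows overlapped each other.
Amhr2, chr15:102445117-102445416, plus strand: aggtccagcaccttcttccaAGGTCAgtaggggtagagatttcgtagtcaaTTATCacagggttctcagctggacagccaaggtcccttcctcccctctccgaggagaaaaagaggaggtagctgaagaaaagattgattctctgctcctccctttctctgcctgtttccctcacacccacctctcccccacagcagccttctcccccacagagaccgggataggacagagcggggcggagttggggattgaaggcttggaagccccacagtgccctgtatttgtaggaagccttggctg
Inha, chr1:75507359-75507658, plus strand: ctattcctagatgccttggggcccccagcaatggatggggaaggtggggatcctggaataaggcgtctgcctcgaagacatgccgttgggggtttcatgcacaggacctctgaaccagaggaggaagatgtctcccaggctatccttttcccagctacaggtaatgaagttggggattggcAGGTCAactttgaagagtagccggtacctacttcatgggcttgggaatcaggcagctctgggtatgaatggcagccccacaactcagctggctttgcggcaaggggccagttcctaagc
Inhbb, chr1:119422199-119422498, minus strand: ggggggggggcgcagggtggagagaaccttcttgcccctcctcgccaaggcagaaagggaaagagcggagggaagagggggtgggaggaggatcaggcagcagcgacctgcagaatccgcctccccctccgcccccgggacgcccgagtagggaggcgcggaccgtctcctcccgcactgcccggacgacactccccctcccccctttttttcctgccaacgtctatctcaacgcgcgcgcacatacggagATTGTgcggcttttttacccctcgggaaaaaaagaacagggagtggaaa
Fshr, chr17:89200626-89200925, minus strand: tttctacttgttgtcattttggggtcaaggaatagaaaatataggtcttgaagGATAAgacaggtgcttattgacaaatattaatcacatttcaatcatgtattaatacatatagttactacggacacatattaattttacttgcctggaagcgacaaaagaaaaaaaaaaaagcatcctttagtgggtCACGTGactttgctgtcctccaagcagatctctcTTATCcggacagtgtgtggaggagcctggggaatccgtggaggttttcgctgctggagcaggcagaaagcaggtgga

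AGGTCA stood at -230 from the gene's start in Amhr2 and at -69 in Inha. Of all 32851 promoter windows of that length, 16.3% hold it. CACGTG stood at -61 in Fshr, a window that also holds GATAA at -197 and, on the other strand, at -27, and 7.2% and 25.4% of all windows hold these motifs. GATAA also stood at -199 on the other strand in Amhr2. The match in Inhbb was ACAAT, on the other strand at position 2 after the start, and Inhba held the same motif on that strand at -204, while 31.0% of all windows hold it. TGACG, held by 20.8% of windows, was not among the letters of these 5. The matches are a description of the letters in these windows.

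The Sertoli cell label was checked on 17 other markers of that cell. Their summed intensity was 49990 and 52753 on the Lhcgr KO arrays, against 52639 and 49395 on the control WT arrays, and their median log2 fold change was -0.02. Of these, 1 passed the test as lower and 16 did not pass it, while 4 had an unadjusted p under 0.05, namely Trf, lower, and Shbg, Dhh and Mro, each with a higher value in Lhcgr KO (log2 fold changes 0.47, 0.46 and 0.34). The tissue is bulk testis, so fewer cells of a type and less RNA per cell cannot be told apart. Markers of some other cells differed between the genotypes. Among 7 markers of Leydig cells, 3 fell and 4 missed the threshold (5 at an unadjusted p under 0.05). Their summed intensity was 7425 and 5900 in Lhcgr KO against 23093 and 13814 in control WT. Of 6 macrophage markers, 3 fell and 3 did not pass, while all 6 had an unadjusted p under 0.05. Their sum was 2568 and 2948 in Lhcgr KO against 4983 and 6186 in control WT. Of 8 epididymal markers none passed (0 at an unadjusted limma p under 0.05), but their sum was 595 and 591 in Lhcgr KO against 527 and 10566 in control WT, the last value being that of replicate 2. The markers high on that array were Spint4 (6037 units), Adam7 (2101), Rnase12, Defb20 and Lcn5, named after their values were seen. Rnase9, Rnase10 and Lcn8 were not raised there, at 46, 48 and 73 units. The germ cell sum of 10 markers was 1430 and 1352 in Lhcgr KO against 1886 and 1332 in control WT, and none passed (3 at an unadjusted p under 0.05). None of 6 peritubular, 5 fibroblast-like and 6 endothelial markers passed, while 5, 2 and 2 of them had an unadjusted p under 0.05. The peritubular markers went in both directions, with log2 fold changes from -0.60 to 0.67. Over all genes, 3.10% passed the test and 22.7% had an unadjusted p under 0.05, and each marker count stands beside these shares. The part of these cells in the values below was not tested. Values for Lhcgr itself are not analysed here.

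Amh, on chromosome 10, was the only member past the test. It measured 957 and 808 intensity units in the Lhcgr KO testes, against 465 and 551 units in the control WT testes. Both Lhcgr KO arrays lay above both control WT arrays, and the gap between the nearest arrays was 0.55 on the log2 scale, larger than the SD of either group. On that scale the mean was 9.78 ± 0.17 in Lhcgr KO and 8.98 ± 0.17 in control WT (SD, n = 2 each). The fold was 1.74, with a 95% confidence interval of 1.37 to 2.20 (limma, log2 fold change 0.80 ± 0.14 SE, Benjamini-Hochberg adjusted p = 0.0398). The absolute log2 fold change of Amh was larger than that of 96.7% of all genes. Of the 7 members, 1 was thus called higher and 0 lower at an adjusted p under 0.05, while 3.10% of all genes were called in either direction, 0.963% higher and 2.14% lower. An unadjusted p under 0.05 was reached by 4 members, Amh and Inhbb with higher and Fst and Amhr2 with lower values in Lhcgr KO, and by 22.7% of all genes. The call of Amh ended without Lhcgr KO replicate 1 (log2 fold change 0.68, limma adjusted p = 0.203), without Lhcgr KO replicate 2 (0.92, 0.175) and without control WT replicate 1 (0.68, 0.0628), and it stood without control WT replicate 2 (0.92, 0.0236), the array with the high epididymal markers.

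**Figure D1:**
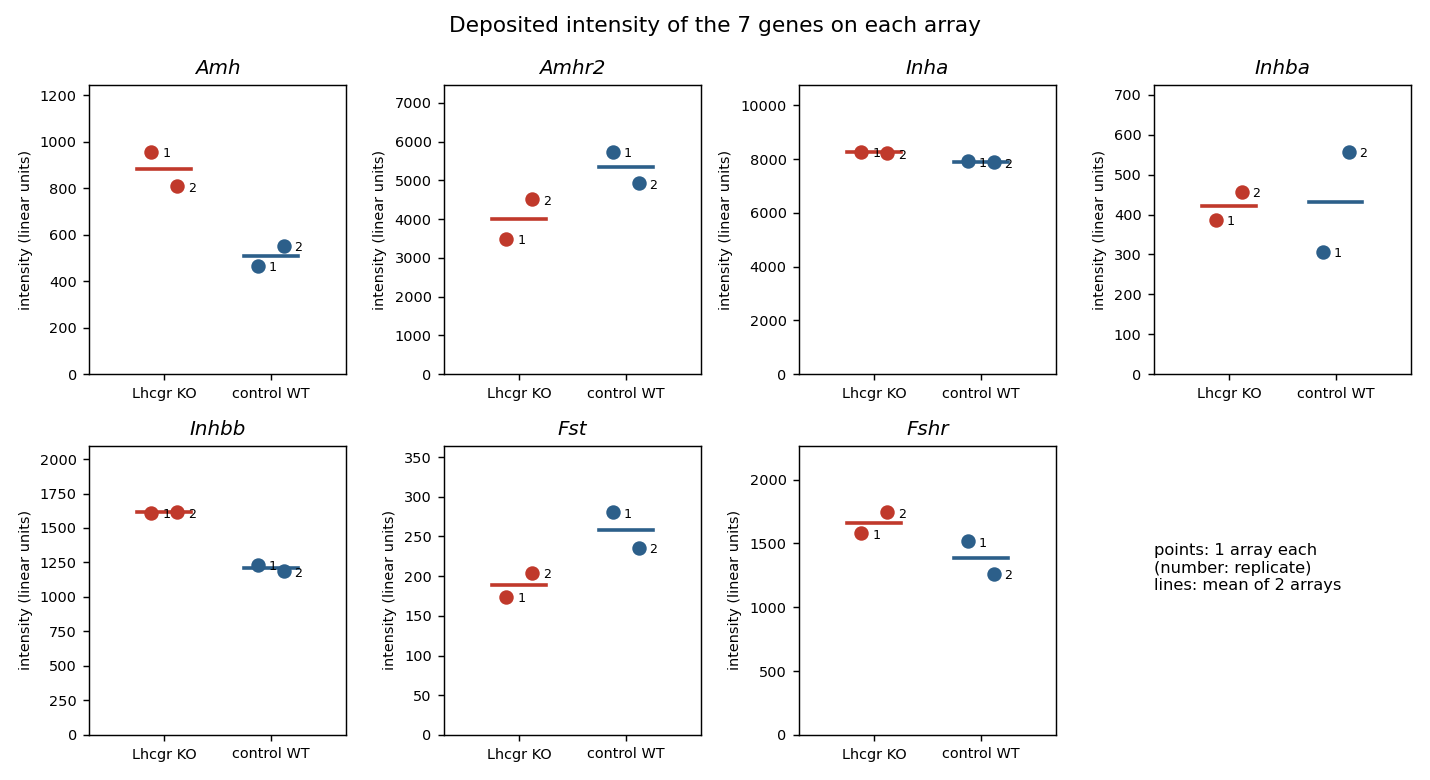
Deposited intensity (linear units, axes from 0) of each gene on every array, Lhcgr KO in red and control WT in blue, with the replicate number beside each point and a line at the mean of 2 arrays. The groups are separate for Amh, Amhr2, Inha, Inhbb, Fst and Fshr, and overlap for Inhba, whose control WT arrays stood at 307 and 558 units.

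The groups did not overlap for 6 of the 7 members, with 4 higher and 2 lower in Lhcgr KO. Over all genes tested, 59.2% showed such separation, 36.8% with both Lhcgr KO arrays above and 22.4% with both below, so separation by itself is common in this comparison. The median log2 fold change was 0.06 for the members and 0.07 for all genes.

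Amhr2, on chromosome 15, encodes the receptor that binds AMH and is known to be made by Sertoli and Leydig cells. It measured 3497 and 4509.8 intensity units in Lhcgr KO, against 5743 and 4931 units in control WT. Both Lhcgr KO arrays were thus below both control WT arrays, but the gap of -0.13 on the log2 scale was smaller than the SD of 0.26 in Lhcgr KO and of 0.16 in control WT. The log2 fold change was -0.42 ± 0.16 (SE, limma adjusted p = 0.195), which does not pass the test, with a 95% confidence interval of -0.80 to -0.04 before adjustment. The hormone and its receptor thus had estimates of opposite sign. Its promoter window, printed above, shares AGGTCA with that of Inha, whose log2 fold change was 0.06. Within each array, Amh minus Amhr2 was 1.53 and 0.91 log2 units in Lhcgr KO relative to the control WT mean, against -0.23 and 0.23 in control WT, a mean difference of 1.22 (exact permutation p = 0.333, two-sided, the smallest that 2 arrays against 2 can give).

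Inha, on chromosome 1, encodes the alpha subunit that both inhibins share. It measured 8274 and 8217 intensity units in Lhcgr KO, against 7920.4 and 7887 units in control WT. The arrays of each group were close together, with an SD of 0.0072 in Lhcgr KO and 0.0043 in control WT on the log2 scale. The fold was 1.04, with a 95% confidence interval of 0.872 to 1.25 (limma adjusted p = 0.739), which does not pass the test. The interval is wide beside these SDs because limma draws each gene's spread toward that of all genes.

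Inhbb, also on chromosome 1, encodes the beta B subunit of inhibin B, the main inhibin of the male circulation, and of activin B. It measured 1612 and 1613 intensity units in Lhcgr KO, against 1233 and 1186 units in control WT. The Lhcgr KO arrays were nearly identical and stood 0.39 log2 units above the nearer control WT array, a gap larger than the SD of 0.04 in control WT. The fold was 1.33, with a 95% confidence interval of 1.11 to 1.60 (log2 fold change 0.41 ± 0.11 SE, limma unadjusted p = 0.00738, adjusted p = 0.107), so Inhbb did not pass the test after adjustment over all genes. The lowest adjusted p of Inhbb under any of 14 alternatives was 0.062. Within each array, Inha minus Inhbb was -0.35 and -0.36 log2 units in Lhcgr KO relative to the control WT mean, against -0.03 and 0.03 in control WT, a mean difference of -0.35 (exact permutation p = 0.333, two-sided, the smallest possible).

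Inhba, on chromosome 13, encodes the beta A subunit of inhibin A and activin A. It measured 387 and 458 intensity units in Lhcgr KO, against 307 and 558 units in control WT. The 2 control WT arrays enclosed both Lhcgr KO arrays, and their SD of 0.61 on the log2 scale was the largest of the 7 members. The log2 fold change was 0.02 ± 0.27 (SE, limma adjusted p = 0.964), 0.45 without control WT replicate 2 and -0.41 without control WT replicate 1. The higher control WT value was that of replicate 2, the array on which the epididymal markers summed to 10566. Bmpr1b, the gene of a receptor for bone morphogenetic proteins, measured 7.23 and 7.54 log2 units in Lhcgr KO, against 7.22 and 10.43 in control WT, with the high value on the same array. Krt18, an epithelial keratin that was also among the Sertoli cell markers, measured 7.45 and 7.54 in Lhcgr KO, against 7.49 and 9.53 in control WT, again highest there. Bmpr1b and Krt18 are named here after their values were seen. Whether epididymal tissue contributed to the Inhba value was not tested.

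Fst, on chromosome 13, encodes follistatin. It measured 174 and 204 intensity units in Lhcgr KO, against 280.3 and 236 units in control WT. Both Lhcgr KO arrays were below both control WT arrays, with a gap of -0.21 on the log2 scale beside SDs of 0.16 in Lhcgr KO and 0.18 in control WT. The log2 fold change was -0.45 ± 0.14 (SE, limma unadjusted p = 0.0172, adjusted p = 0.149), which does not pass the test. Inhba minus Fst, the activin A subunit set against its binding protein within an array, was 0.47 and 0.48 log2 units in Lhcgr KO relative to the control WT mean, against -0.55 and 0.55 in control WT (exact permutation p = 1.0, two-sided). The control WT arrays thus enclosed the Lhcgr KO arrays in this measure too.

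Fshr, on chromosome 17, encodes the receptor for FSH, which in the testis is confined to Sertoli cells. It measured 1578 and 1743 intensity units in Lhcgr KO, against 1517 and 1261 units in control WT. The groups were separated by 0.06 log2 units, less than the SD of 0.10 in Lhcgr KO and 0.19 in control WT. The fold was 1.20, with a 95% confidence interval of 0.957 to 1.50 (limma adjusted p = 0.289), which does not pass the test. Amh minus Fshr was 0.73 and 0.34 log2 units in Lhcgr KO relative to the control WT mean, against -0.26 and 0.26 in control WT, so this measure did not overlap between the groups either (mean difference 0.54, exact permutation p = 0.333, two-sided, the smallest possible).

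**Figure D2:**
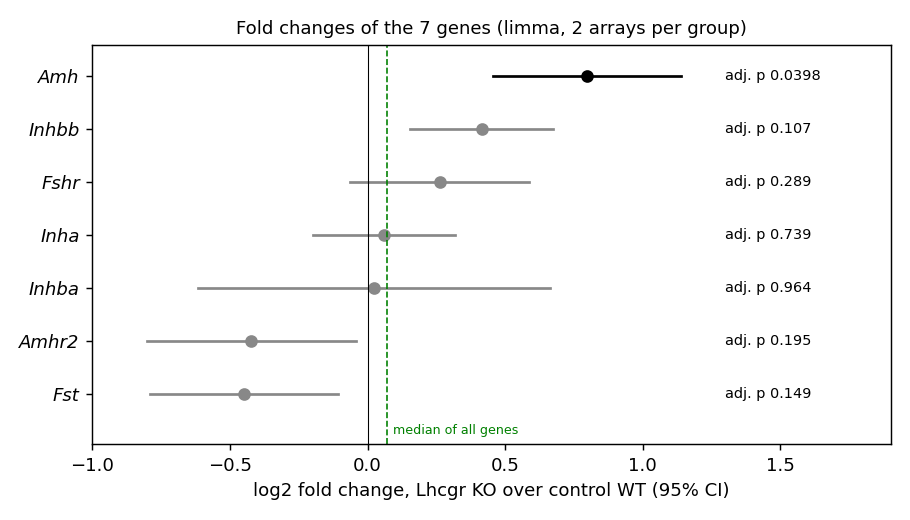
Log2 fold change of each gene, Lhcgr KO over control WT, with its 95% confidence interval from limma (2 arrays per group) and the adjusted p at the right. Amh (black) passed the test with an interval of 0.45 to 1.14, the genes in grey did not, and the dashed line marks the median of all genes at 0.07.

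Over the 7 pairs of members compared within arrays, the lowest exact permutation p after adjustment was 0.583. With 2 arrays against 2 the unadjusted p cannot go below 0.333, so no pair could have passed and the test decides nothing. Amh minus Inha was 0.85 and 0.62 log2 units in Lhcgr KO relative to the control WT mean, against -0.13 and 0.13 in control WT. Inha minus Inhba and Inhba minus Inhbb overlapped between the groups, with mean differences of 0.04 and -0.39.

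**Figure D3:**
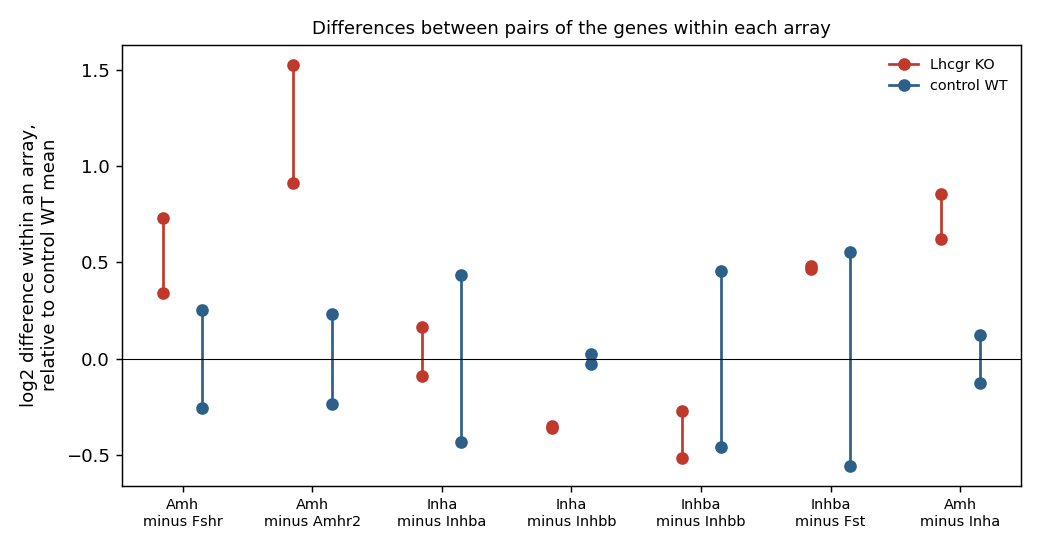
Difference in log2 intensity between 2 of the genes within each array, set to 0 at the control WT mean, Lhcgr KO in red and control WT in blue, with 1 point per array and a line joining the arrays of a group. The groups are separate for Amh minus Fshr, Amh minus Amhr2, Inha minus Inhbb and Amh minus Inha, and overlap in the 3 pairs that hold Inhba.

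Set against the median of the 17 Sertoli cell markers on each array, Amh stayed higher in both Lhcgr KO arrays, with a difference of 0.74 log2 units, and the median of the markers itself differed by 0.06. In that scaling, added after the data were seen, the limma adjusted p of Amh was 0.0679, so it did not pass the threshold of 0.05. Inhbb differed by 0.36, Fshr by 0.21, Inha by 0.00, Inhba by -0.035, Amhr2 by -0.48 and Fst by -0.51 log2 units. Fshr and Inhbb remained separate between the groups, as did Amhr2 and Fst, while Inha no longer was.

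The order of the 4 arrays differed among the members. Amhr2 and Fst ran in the same order, lowest in Lhcgr KO replicate 1, then Lhcgr KO replicate 2 and control WT replicate 2, and highest in control WT replicate 1, and their profiles centred on each gene's mean differed by a root mean square of 0.05 log2 units, the smallest of any pair of members. Amh ran in the opposite order, highest in Lhcgr KO replicate 1 and lowest in control WT replicate 1. The median of the Leydig markers, each centred on its mean, was -0.65 in Lhcgr KO replicate 1 and -0.94 in Lhcgr KO replicate 2, against 1.16 in control WT replicate 1 and 0.02 in control WT replicate 2. As in Amhr2 and Fst, both Lhcgr KO arrays were below both control WT arrays, and control WT replicate 1 was highest. The 2 Lhcgr KO arrays stood in the reverse of their order in Amhr2 and Fst. Whether Leydig cells contributed to these orders was not tested. Single markers such as Hsd3b6 did not follow the order of the median.

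By the same measure over the 4 arrays, the genes most like Amh were Wnt2b, a secreted Wnt ligand, and Cbfa2t3, a transcriptional co-repressor, at 0.04 and 0.05 log2 units. Only genes with an ordinary symbol entered this comparison and its counts, so no Gm, LOC, Olfr, Vmn, Mir, Snor, Rik or clone-type names. Those most like Amhr2 were Dact2 and Elmo1 at 0.02 and 0.03 log2 units, those most like Fst were Ubash3a and Fam78a at 0.01 and 0.03, and those most like Inhba were Napsa and Pmepa1, both at 0.06. For the other members a near neighbour says little, since 5350 genes lay within 0.1 log2 units of Inha, 2629 of Fshr and 1495 of Inhbb. The counts were 191 for Fst, 99 for Amhr2, 24 for Amh and 14 for Inhba, over only 4 arrays. The nearest were Sun1 and Spc24 for Inha, Ropn1 and Alpk2 for Inhbb and Cd164l2 and Nutm1 for Fshr.

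Of the genes around this hormone axis, Trf alone passed the test in the 6 lists below, beside 3.10% of all genes, and the unadjusted counts of each list stand beside 22.7% of all genes. Of 8 receptors and co-receptors of activins, inhibins and AMH, none passed the test in limma (1 at an unadjusted p under 0.05), with a median log2 fold change of -0.01 against 0.07 for all genes. The lowest p-values were those of Acvr1, a type I receptor that AMH and activins can use, at 8.69 and 8.68 log2 units in Lhcgr KO against 9.03 and 9.09 in control WT (log2 fold change -0.38 ± 0.11, limma adjusted p = 0.126), and of Acvr2a, the activin type II receptor, at 8.50 and 8.60 in Lhcgr KO against 8.33 and 8.35 in control WT (0.21 ± 0.11, adjusted p = 0.299). None of 8 Smads, which carry these signals to the nucleus, passed (2 at an unadjusted p under 0.05), with a median of 0.08. Smad3, of the activin branch, had a log2 fold change of 0.54 ± 0.15 (limma adjusted p = 0.115), and Smad1, of the AMH branch, one of -0.34 ± 0.12 (adjusted p = 0.164). Smad5 and Smad9, also of the AMH branch, had 0.07 and 0.16, and Smad2, also of the activin branch, had 0.06. These were named after their values were seen, and the branches did not move as units. The arrays of Smad3 and Smad1 did not overlap between the groups, nor did those of 59.2% of all genes. Of the 8 Smads, 4 lay above and 1 below in Lhcgr KO in this way.

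The next list, of 9 genes, held other beta subunits, binding proteins and the convertases that cleave the precursors, with Bambi and Tdgf1. None passed (3 at an unadjusted p under 0.05), with a median of 0.12. The convertase Pcsk7 had a log2 fold change of -0.39 ± 0.11 (limma adjusted p = 0.115), and Fstl3, the follistatin-like activin-binding protein, one of -0.34 ± 0.11 (adjusted p = 0.156), of the same sign as Fst. Fstl3 measured 9.50 and 9.46 log2 units in Lhcgr KO against 9.79 and 9.84 in control WT. Bambi, also at an unadjusted p under 0.05 and named after its values were seen, had the opposite sign (log2 fold change 0.53 ± 0.22, limma adjusted p = 0.214).

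Below the FSH receptor, which signals through cyclic AMP, none of 11 measured genes passed (4 at an unadjusted p under 0.05), with a median of 0.11. Prkar2a, a regulatory subunit of protein kinase A, was nearest to the threshold, at 9.88 and 9.85 log2 units in Lhcgr KO against 9.13 and 9.35 in control WT (log2 fold change 0.62 ± 0.13, limma adjusted p = 0.0555). Pde4b, a phosphodiesterase that degrades cyclic AMP, stood at 9.79 and 9.62 in Lhcgr KO against 9.07 and 9.20 in control WT (0.57 ± 0.12, limma adjusted p = 0.0674). Of 8 measured genes known to be raised by FSH in cultured Sertoli cells, 1 fell and none rose, with a median of 0.21, while 6 had an unadjusted p under 0.05. Of these 6, Shbg, Kitl, Gdnf and Fgf2, named after their values were seen, were higher on both Lhcgr KO arrays than on both control WT arrays, with log2 fold changes of 0.33 to 0.55 (limma adjusted p between 0.0684 and 0.188). Nr4a1, also of the 6 and also named after its values were seen, was lower on both Lhcgr KO arrays (log2 fold change -0.53, limma adjusted p = 0.152). Both Lhcgr KO arrays lay above both control WT arrays for 4 of the 8 genes and below for 3. Over all genes these shares were 36.8% and 22.4%. The one that passed the test as lower was Trf, transferrin, at 8.24 and 8.25 log2 units in Lhcgr KO against 10.15 and 10.92 in control WT (log2 fold change -2.29 ± 0.24, limma adjusted p = 0.00746). Trf is also the Sertoli cell marker that passed the test.

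Of 11 measured transcription factors known to act on the promoters of these hormone genes, none passed (1 at an unadjusted p under 0.05), with a median of 0.16. Zfpm2, a GATA cofactor, had a log2 fold change of 0.39 ± 0.14 (limma adjusted p = 0.182). Sox9, which activates Amh in the fetal testis, had one of 0.25 ± 0.11 (adjusted p = 0.238), at 11.62 and 11.68 log2 units in Lhcgr KO against 11.45 and 11.35 in control WT.

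**Figure D4:**
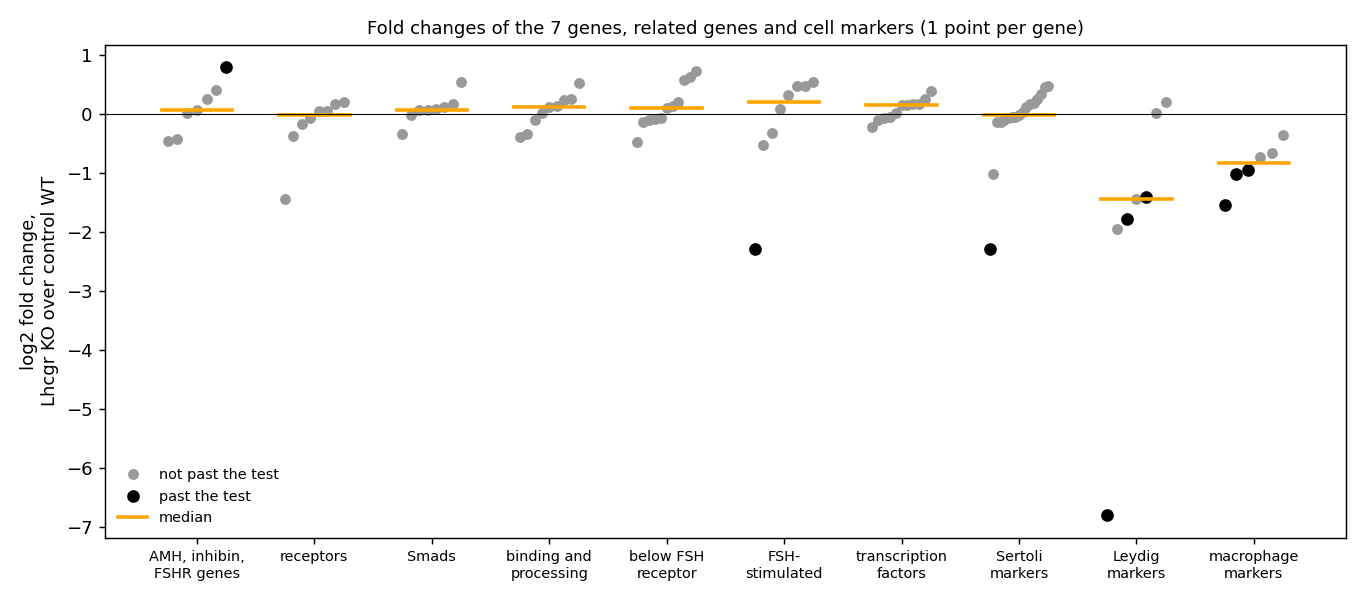
Log2 fold change, Lhcgr KO over control WT, of the 7 genes, of 6 lists of related genes and of 3 lists of cell markers, with 1 point per gene, black past the test (limma adjusted p under 0.05) and an orange line at the median. Amh is the black point of the first column, Trf that of the FSH-stimulated and Sertoli columns, and the Leydig and macrophage markers lie mostly below 0.

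**Figure D5:**
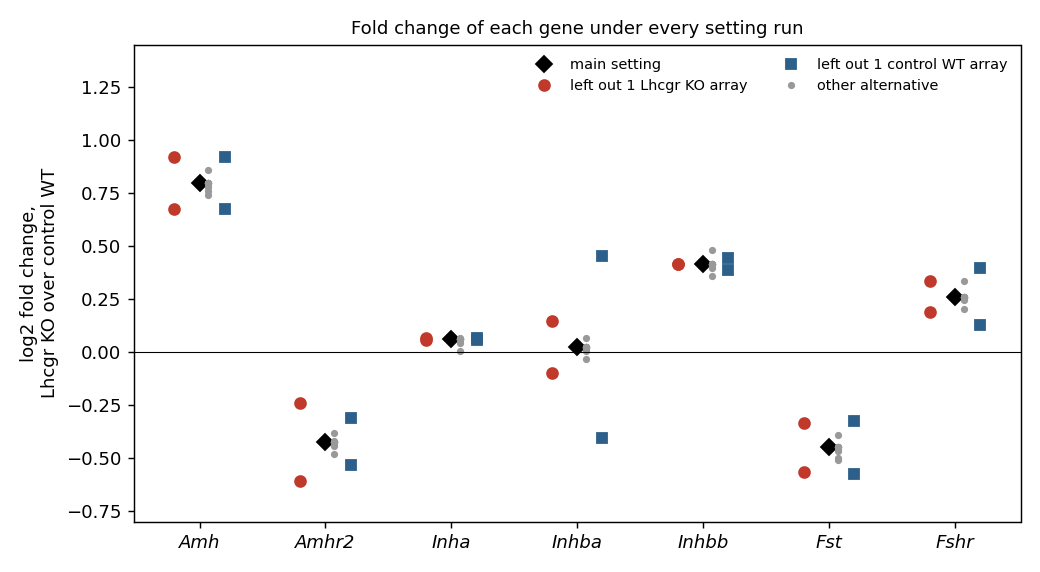
Log2 fold change, Lhcgr KO over control WT, of each gene in the main setting (black), without 1 Lhcgr KO array (red), without 1 control WT array (blue) and under the other alternatives (grey). Amh stays between 0.68 and 0.92 and Inhbb between 0.36 and 0.48, while Inhba runs from -0.41 to 0.45.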

How the data were processed

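Per the labels' protocols, testis RNA was copied into biotin-labelled sense-strand cDNA for Affymetrix whole-transcript arrays of 1 colour. The deposited values are the authors' linear intensity of each probe set, and the submitters' processing notes name the build mm9. How probes were summarized and normalized is not given in the sources used here. On each array, the lowest value was 16.0, array medians ran from 198 to 215 over 28856 probe sets, and no detection calls were used. An amount added near that lowest value would compress fold changes of weak genes. Chromosomes are those of RefSeq genes on GRCm38.p6, matched by Entrez number.

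Of the probe sets, 21789 have 1 symbol in the platform annotation, 1621 several and 5446 none. The highest-mean probe set stood for each of 19938 genes. Log2 values were fitted with limma 3.58.1 in R 4.3.3 (lmFit, eBayes, no covariate), two-sided, with Benjamini-Hochberg adjustment over all genes. The fit was checked on simulated data whose spread was drawn from limma's own fit, so its assumptions held there. With 200 genes changed, it recovered 78% of those at a log2 size of 1 and 100% of those at 2. The largest log2 fold change among the members was 0.80. No test of lists was made.

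The members, the lists and the rule for named genes were chosen with earlier results of these data known. The rule took all members, every list gene past the test or else the 2 with the lowest p, and the 2 genes with an ordinary symbol closest to each member in profile. Several genes of the lists are not analysed here.

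Alternatives were quantile normalization, median centring, leaving out the lowest 25% or 50% of genes, averaging probe sets, a trended or robust prior, adding 32 before log2, leaving out each array, and the replicate number as a block. Centring on the Sertoli markers was added after seeing the data.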

Additional observations from a re-analysis of the deposited data

How the results depend on the processing

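Amh was higher in Lhcgr KO in all 14 alternatives (log2 fold change 0.68 to 0.92) and passed the test in 9 of them, with limma adjusted p between 0.0202 and 0.203. Beside the 3 arrays named with its result, the call ended, leaving 0 members higher, with each array centred on the Sertoli markers (0.74, adjusted p = 0.0679) and with the replicate number as a block (0.80 in the replicate block fit, adjusted p = 0.0631). The labels do not say that a number marks a shared animal or batch, and same-numbered arrays deviated together with a correlation of 0.02 over 19938 genes, so the block was not used elsewhere.

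No other member passed under any alternative. Leaving out 1 array gave log2 fold changes of -0.61 to -0.24 for Amhr2, 0.06 to 0.07 for Inha, 0.39 to 0.44 for Inhbb, -0.57 to -0.33 for Fst and 0.13 to 0.40 for Fshr. Inhba ran from -0.41 to 0.45, changed sign without Lhcgr KO replicate 2 (-0.10) and without control WT replicate 1 (-0.41), and was -0.035 when centred on the Sertoli markers. Without 1 array, between 0 and 1 members were called higher, 0 lower. Over all genes, 618 were called in the main setting, 18 without Lhcgr KO replicate 1, 23 without Lhcgr KO replicate 2, 1039 without control WT replicate 1 and 572 with the block. Fst is below the level kept when the lowest 50% of genes were left out and has no value there.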
